A study of Caenorhabditis elegans with 11 samples.

Results

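Mid-life was set against the youngest and oldest ages in small RNA libraries of whole hermaphrodites of the nematode Caenorhabditis elegans, all of its usual laboratory strain, N2. The 6 mid-life libraries (5 days, n = 3, and 10 days, n = 3) and the 5 end libraries (1 day, n = 3, and 20 days, n = 2) were selected by the age in their labels, and they make up all 11 libraries of the series. Every group carried the same N2 genotype with no treatment named, and the libraries were made from total RNA of whole worms with the TruSeq small RNA kit. The sources used here give neither the stage from which days were counted nor whether libraries of 1 age came from separate cultures. The p-values set the age differences against the spread between libraries of 1 age, and that spread may therefore be technical.

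A microRNA (miRNA) is a short RNA cut from a hairpin precursor. Its seed, a short stretch near its start, pairs with messenger RNAs and lowers their output, and hairpins that share a seed form a family with overlapping targets. In C. elegans some miRNAs time the passage from larva to adult, others are made in single tissues such as the intestine or body muscle, and a few, mir-71 among them, are known to lengthen or shorten life. Adult hermaphrodites carry and lay eggs early in adult life, and later their germline and other tissues decline.

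The deposited table gave a raw read count for each of 250 hairpins, with both arms of a hairpin in 1 value. Library totals lay between 955506 and 1800586 counts, of which the 145 hairpins that could be tested held 99.99%. Levels are given as CPM, the count scaled to a common library total, after TMM scaling. With no spike-in named, each level is relative to the rest of the miRNAs in that library. In whole worms, fewer cells of a type and less of a miRNA per cell cannot be told apart. The number after the letter L in each library's description, which may be a sequencing lane, ran partly with age. Numbers 1 and 2 held end libraries only and 4, 5 and 6 held mid-life libraries only, while 3 (5 against 1 day) and 7 (10 against 20 days) held 1 library of each kind. In each of the 10 pairs of libraries of 1 age the counts differed beyond counting noise.

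The first question was which hairpins stood apart in mid-life from the mean of the ends, with each age weighted equally. With edgeR (quasi-likelihood test, Benjamini-Hochberg adjusted p under 0.05), 68 of 145 hairpins did (46.9%), 34 higher (23.4%) and 34 lower (23.4%). Of these, 5 were over 2-fold higher and 8 over 2-fold lower, and the median log2 difference over all tested hairpins was 0.0057. Such a difference can come from 1 end alone, so a peak was defined as mid-life above both 1 day and 20 days, and a dip as mid-life below both, each with both tests passed. There were 13 peaks (8.97% of the 145) and 6 dips (4.14%). Mid-life differed from 1 day in 60% of the tested hairpins (33.8% higher, 26.2% lower) and from 20 days in 57.9% (28.3% higher, 29.7% lower). The median log2 difference of mid-life over all tested hairpins was 0.126 from 1 day and 0.018 from 20 days. The other 49 of the 68 stood apart from the mean of the ends without being a peak or a dip. Peaks numbered 6 when 1-day replicate 2 was left out, 7 for 10-day replicate 1, 7 for 20-day replicate 1 and 8 for 20-day replicate 2. Dips numbered 11 when 10-day replicate 1 was left out and 10 for 20-day replicate 1.

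**Figure D1:**
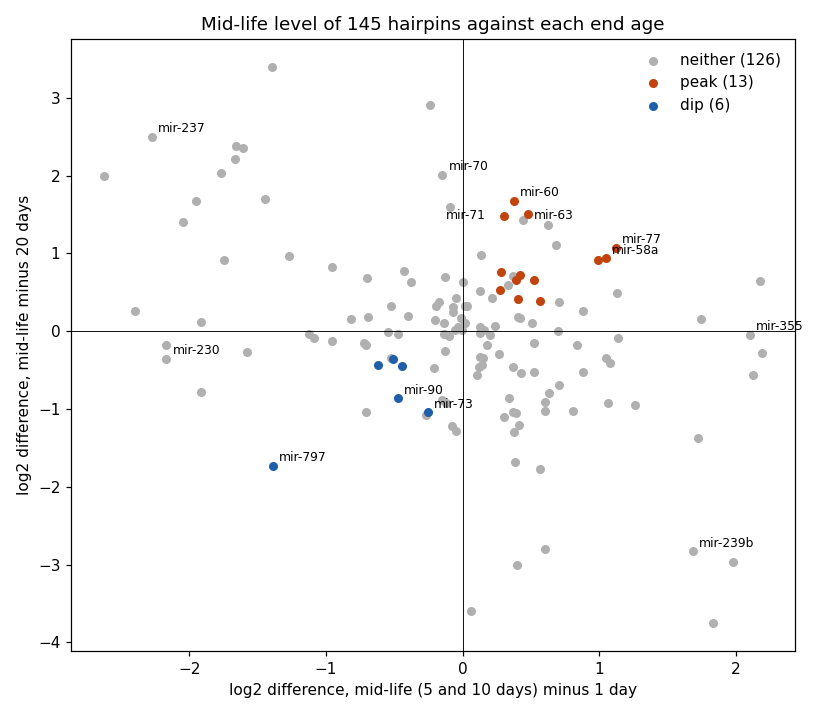
Log2 difference of mid-life from 1 day (x axis) and from 20 days (y axis) for the 145 tested hairpins, 1 point each. The 13 peaks lie in the upper right and the 6 dips in the lower left, and mir-237 and mir-239b lie in the other corners, where mid-life sits between the ends.

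All 13 peaks had a mean of at least 50 CPM, as did 97 of the 145 tested hairpins, and 5 of the 6 dips did. The estimates were less precise for the 48 hairpins below that level, with a median standard error (SE) of the log2 difference of 0.26 against 0.101 above it. Only mir-77 among the peaks and mir-797 among the dips differed from both ends by more than 2-fold. Mid-life and end libraries did not overlap in 9.66% of the tested hairpins. In 8 of the 13 peaks the lowest mid-life library lay above the highest end library, and in 5 of the 6 dips the highest mid-life library lay below the lowest end library. Over all tested hairpins, 9 (6.21%) had no overlap with mid-life higher and 5 (3.45%) with mid-life lower. The ninth of the former was mir-248, which missed the test against 20 days (log2 difference 0.26 ± 0.12 (SE), edgeR adjusted p = 0.0851). It did peak with total counts, a minimum of 50 CPM, no 10-day group or no 5-day replicate 3. In the pair of libraries with L number 3 and in the pair with L number 7, all 13 peaks were higher and all 6 dips lower at the mid-life age, but these 4 libraries were among those that chose the 19 hairpins, so the count is a description and no support. The same held for 27 of the 34 hairpins called higher and 20 of the 34 called lower than the mean of the ends.

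The peaks with the highest abundance belonged to the mir-58 family, the worm relatives of the fly growth miRNA bantam. mir-58a, in an intron of Y67D8A.2 (chromosome IV, 3233254 to 3233350, plus strand, WBcel235), measured 44007, 50107 and 59539 CPM at 1 day, 108232, 88653 and 85030 CPM at 5 days, 124491, 117355 and 114930 CPM at 10 days, and 61358 and 48834 CPM at 20 days. Every mid-life library lay above every end library. It was 2.06-fold higher in mid-life than at 1 day (log2 difference 1.05 ± 0.12 (SE), edgeR adjusted p = 6.22e-07) and 1.92-fold higher than at 20 days (0.94 ± 0.14, edgeR adjusted p = 1.22e-05). The ends differed from each other by 0.11 on the log2 scale, which did not pass.

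mir-82, in an intron of gid-2 (chromosome X, 2435258 to 2435354, minus strand), was the most abundant hairpin of the table. It measured 121616, 131957 and 147168 CPM at 1 day, 168110, 176358 and 151499 CPM at 5 days, 186500, 171706 and 197436 CPM at 10 days, and 116759 and 105680 CPM at 20 days. The groups did not overlap; the closest were a 1-day library at 147168 CPM and a 5-day library at 151499 CPM. The rise was smaller than that of mir-58a, 1.31-fold over 1 day (log2 0.39 ± 0.09 (SE), edgeR adjusted p = 0.00153) and 1.57-fold over 20 days (0.65 ± 0.11, edgeR adjusted p = 5.61e-05). When the fit was limited to hairpins averaging 50 CPM or more, the smaller difference was 0.19 and no longer passed.

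The other tested members of the family did not peak in the fit reported here, but mir-80 did with the L number as a fixed term and without the 10-day group. mir-80 measured 83055 ± 3822 CPM at 1 day, 98624 ± 7495 CPM at 5 days, 84408 ± 7317 CPM at 10 days (SD, n = 3 each) and 46286 ± 1825 CPM at 20 days (n = 2). It stood above the mean of the ends and above 20 days (log2 0.98) but did not pass against 1 day (0.14 ± 0.09 (SE), edgeR adjusted p = 0.207). mir-81 had a mid-life level between the ends, lower than 1 day by 0.37 and higher than 20 days by 0.64 on the log2 scale, and both differences passed. mir-2209a was lower than the mean of the ends by 0.65 on the log2 scale, and was above 1 day by 0.38 on that scale and 3.22-fold below 20 days. Of the 6 tested members of the family, 3 were higher than the mean of the ends, 1 was lower and 2, mir-81 and the scarce mir-58b, did not pass, with a median log2 difference of 0.33 against 0.0057 over all tested hairpins. Of all tested hairpins, 23.4% were higher and 23.4% lower. The family as a whole took 30.9% to 32.6% of all counts at 1 day, 38.7% to 39.6% at 5 days, 36.5% to 37.0% at 10 days, and 20.6% and 22.4% at 20 days.

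Because mir-82 and mir-58a are so abundant, the 13 peaks together held a large part of every library. Their summed share was 23.6% ± 1.48 (SD, n = 3) at 1 day, 31.3% ± 0.913 (n = 3) at 5 days, 31.9% ± 0.457 (n = 3) at 10 days and 18.3% ± 1.31 (n = 2) at 20 days. mir-82 alone made up 17.1% ± 0.932 at 5 days (n = 3), and the 11 less abundant peaks together 4.45% ± 0.0188. The 6 dips held 4.69% ± 0.381 at 1 day, 2.95% ± 0.542 at 5 days, 3.16% ± 0.294 at 10 days (n = 3 each) and 4.81% ± 0.0452 at 20 days (n = 2). These shares describe hairpins that the same values picked out, and no test was made of them.

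**Figure D2:**
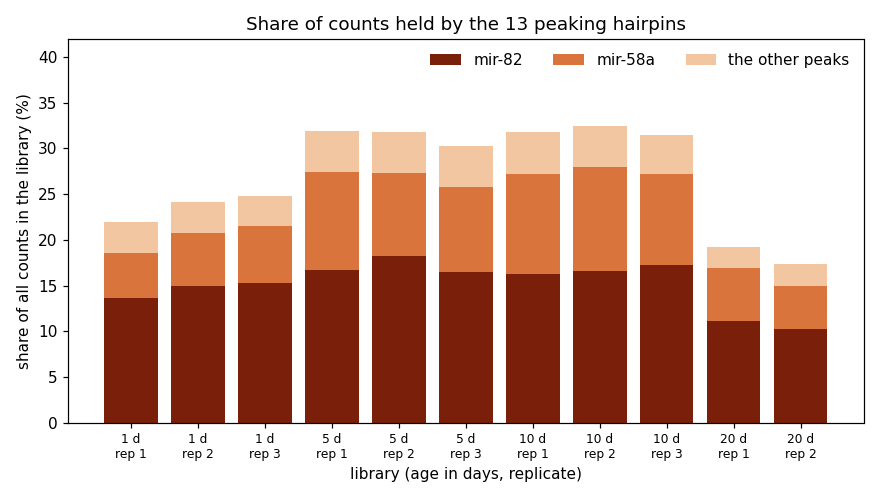
Share of all counts in each library (y axis, %) held by mir-82, mir-58a and the 11 other peaks (stacked bars), by library (x axis). The stack reaches 30.3% to 32.4% in the 6 mid-life libraries, against 22.0% to 24.8% at 1 day and 17.4% and 19.2% at 20 days.

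mir-77 had the largest peak relative to both ends. It lies between genes on chromosome II (12519268 to 12519367, plus strand). Its levels were 4113, 4134 and 4900.4 CPM at 1 day, 9371, 8987 and 8209 CPM at 5 days, 11283, 9374 and 10089.7 CPM at 10 days, and 4799 and 4272 CPM at 20 days. The lowest mid-life library, at 8209 CPM, lay far above the highest end library, at 4900.4 CPM. It was 2.17-fold higher than at 1 day (log2 1.12 ± 0.11 (SE), edgeR adjusted p = 1.06e-07) and 2.10-fold higher than at 20 days (1.07 ± 0.13, edgeR adjusted p = 1.29e-06), and 1 and 20 days differed by 0.05 on the log2 scale, which did not pass.

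mir-75 and mir-79 share a seed, and mir-79 is known to act in the epidermis, where it guides neuron migration through proteoglycan synthesis. mir-75 (chromosome X, 2372453 to 2372549, plus strand, between genes) measured 109, 106 and 107 CPM at 1 day, 224, 203 and 253 CPM at 5 days, 178, 216 and 203 CPM at 10 days, and 120.2 and 104 CPM at 20 days. Its mid-life and end libraries did not overlap, and its mid-life level was 1.99-fold that at 1 day (edgeR adjusted p = 7.57e-07) and 1.89-fold that at 20 days (edgeR adjusted p = 1.48e-05). mir-79 (chromosome I, 9332946 to 9333043, plus strand, between genes) passed both tests with less room. Its log2 differences were 0.28 ± 0.10 (SE) from 1 day and 0.53 ± 0.12 from 20 days, and a 5-day library (204 CPM) lay below all 3 libraries of 1 day (210 to 216 CPM). The call of mir-79 was lost under 6 of 11 other settings and without any single library of 1 or 20 days, 5-day replicate 1 or 10-day replicate 1, when its smaller difference was 0.19 to 0.26.

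Among the developmental timing miRNAs of the let-7 family, mir-48 peaked. It times larval divisions of the epidermal seam cells, and it lies on chromosome V (14364412 to 14364509, minus strand, between genes). Its levels were 12815, 12229 and 13228 CPM at 1 day, 16368, 15857 and 14853 CPM at 5 days, 21564, 20036 and 22858 CPM at 10 days, and 10813 and 12455 CPM at 20 days. All 6 mid-life libraries exceeded all 5 end libraries, and the 10-day libraries exceeded those of 5 days. Mid-life was 1.44-fold above 1 day (log2 0.53 ± 0.10 (SE), edgeR adjusted p = 0.000129) and 1.58-fold above 20 days (0.66 ± 0.11, edgeR adjusted p = 6.36e-05). The other family members took different courses. let-7 itself and mir-241 were lower in mid-life than at 1 day by 1.77 and 1.45 on the log2 scale and higher than at 20 days by 2.04 and 1.70, so that neither stood apart from the mean of the ends (0.14 ± 0.10 and 0.12 ± 0.11). Of the 7 members, 1 peaked (mir-48), 1 dipped (mir-793) and 5 did not differ from the mean of the ends past the threshold, with a median log2 difference of 0.12. Among all tested hairpins, 8.97% peaked and 4.14% dipped.

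mir-63 and mir-66 share a seed with mir-64, mir-65 and mir-229, and the function of this family is less well known. mir-63 (chromosome X, 17598765 to 17598868, minus strand, between genes) measured 488, 435 and 469 CPM at 1 day, 735, 726 and 666 CPM at 5 days, 640.4, 538 and 596 CPM at 10 days, and 213 and 243 CPM at 20 days. Mid-life libraries lay above all end libraries, but the ends were far apart. It was 1.39-fold higher than at 1 day (log2 0.48 ± 0.11 (SE), edgeR adjusted p = 0.000773) and 2.84-fold higher than at 20 days (1.51 ± 0.13, edgeR adjusted p = 3.81e-08). mir-66, the last hairpin of the mir-229 to mir-66 cluster in an intron of gcn-1 (chromosome III, 2173108 to 2173206, plus strand), rose from 3496 ± 119 CPM at 1 day to 4309 ± 308 at 5 days and 6196 ± 839 at 10 days (SD, n = 3 each) and stood at 3929 ± 191 CPM at 20 days (n = 2). Mid-life was 1.48-fold above 1 day (log2 0.56 ± 0.11 (SE), edgeR adjusted p = 0.000199) and 1.31-fold above 20 days (0.39 ± 0.12, edgeR adjusted p = 0.0118). Its 5-day libraries (3998 to 4614 CPM) overlapped those of 20 days (3794 and 4063 CPM), and the peak was lost without the 10-day group (smaller difference 0.13) and without 1-day replicate 2, 10-day replicate 1 or either 20-day library (0.185 to 0.24), and with the L number as a fixed term (0.37). Of the 5 tested members, 2 were higher than the mean of the ends and 3 did not pass, with a median of -0.10, and with RLE factors or total counts 1 of those 3 was lower. The shares over all tested hairpins were 23.4% higher and 23.4% lower.

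**Figure D3:**
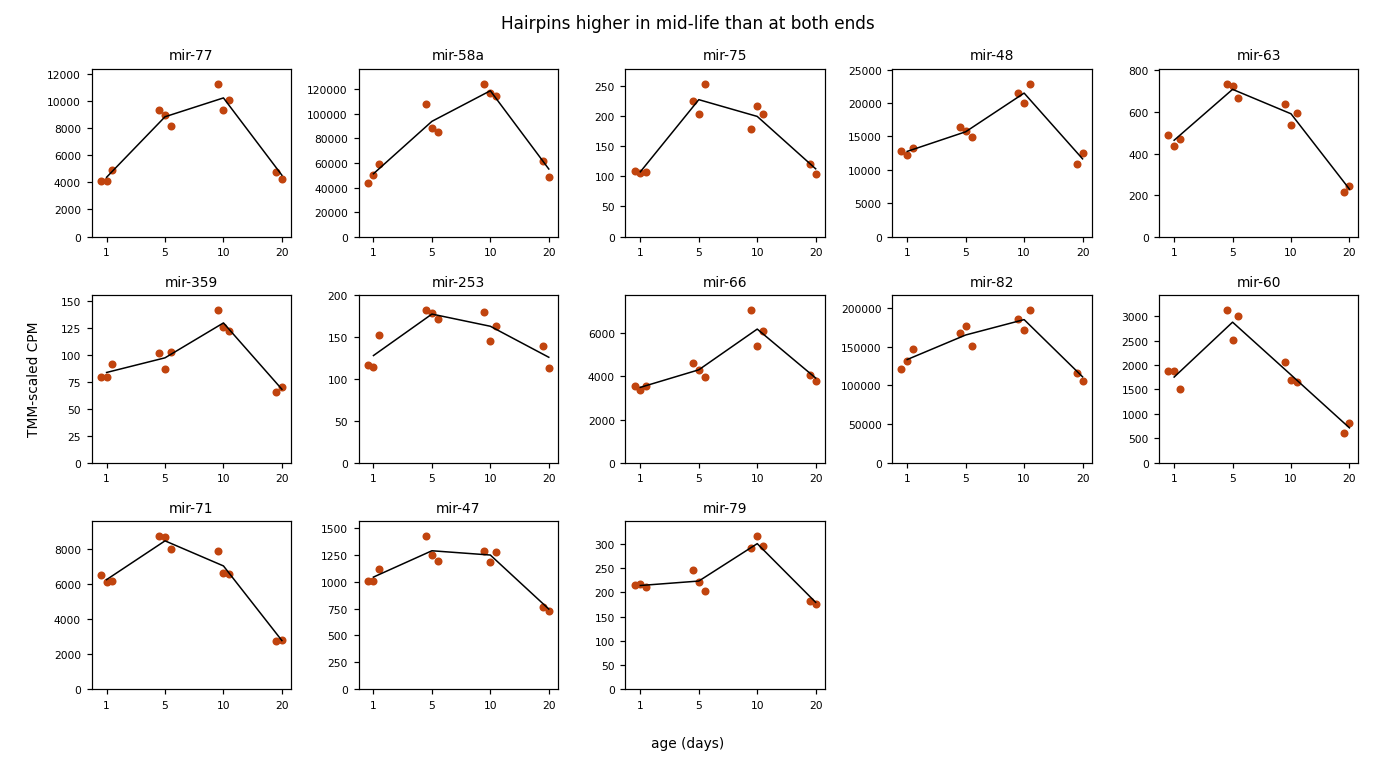
TMM-scaled CPM (y axes, from 0) by age in days (x axes, evenly spaced) for the 13 hairpins higher in mid-life than at both ends, ordered by the smaller of the 2 log2 differences. Points are libraries and the line joins the age means; mir-77, mir-58a and mir-75 return at 20 days to near their 1-day level, while mir-63, mir-60 and mir-71 end well below it.

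mir-71 and mir-60 had their highest age mean at 5 days and low levels at 20 days. For mir-71 the difference of 10 from 5 days did not pass (log2 -0.27, edgeR adjusted p = 0.0751). mir-71, whose loss shortens life and which acts in neurons, lies in an intron of ppfr-1 (chromosome I, 9379927 to 9380020, minus strand). It measured 6508, 6117 and 6187 CPM at 1 day, 8749, 8730.5 and 8003 CPM at 5 days, 7930.5, 6630.4 and 6607 CPM at 10 days, and 2737 and 2817 CPM at 20 days. The lowest mid-life library, at 6607 CPM, was barely above the highest of 1 day, at 6508 CPM. Mid-life was 1.23-fold above 1 day (log2 0.30 ± 0.10 (SE), edgeR adjusted p = 0.0130) and 2.79-fold above 20 days (1.48 ± 0.12, edgeR adjusted p = 1.59e-08). The excess over 1 day no longer passed without the 5-day group (0.096), under 5 of the 10 remaining settings, or without 1-day replicate 2 (0.23) or 10-day replicate 1 (0.20).

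mir-60, made in the intestine, lies between genes on chromosome II (6328702 to 6328799, minus strand). It measured 1880.4, 1875 and 1506 CPM at 1 day, 3123, 2505 and 3005 CPM at 5 days, 2061, 1689 and 1646 CPM at 10 days, and 614 and 815 CPM at 20 days. The 5-day libraries stood above all others, while the 10-day libraries overlapped those of 1 day. Mid-life exceeded 1 day by 0.38 ± 0.13 (SE) on the log2 scale (edgeR adjusted p = 0.0174) and was 3.19-fold above 20 days (log2 1.67 ± 0.16, edgeR adjusted p = 1.11e-07). Without the 5-day group the difference from 1 day was -0.04, so the peak of mir-60 rested on the 5-day libraries. It was also lost without any 1-day library (0.28 to 0.38), 5-day replicate 1 (0.30), 10-day replicate 1 (0.26) or either 20-day library (0.30 and 0.31), and with total counts (0.19) or a minimum of 50 CPM (0.18).

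The remaining peaks were those of mir-47, mir-359 and mir-253. mir-47 (chromosome X, 13921250 to 13921346, plus strand, between genes) ranged from 1185 to 1423 CPM in mid-life, from 1005 to 1118 CPM at 1 day, and stood at 766 and 725 CPM at 20 days. mir-359 (chromosome X, 3004291 to 3004400, plus strand, between genes) measured 83.8 ± 6.88 CPM at 1 day, 97.4 ± 8.82 CPM at 5 days and 129.7 ± 10.4 CPM at 10 days (SD, n = 3 each). It had 65.8 and 70.6 CPM at 20 days. A 5-day library, at 87.2 CPM, lay below the highest 1-day library, at 91.7 CPM. Taken singly, 5 days did not pass against 1 day (log2 0.22, edgeR adjusted p = 0.184). mir-253 (chromosome V, 5780510 to 5780616, minus strand, in an intron of F44E7.5) ranged from 145 to 182 CPM in mid-life, and its highest end library, at 152 CPM, overlapped them. Their smaller log2 differences were 0.28 ± 0.10 (SE) for mir-47 (edgeR adjusted p = 0.0242), 0.42 ± 0.11 for mir-359 (edgeR adjusted p = 0.00352) and 0.40 ± 0.12 for mir-253 (edgeR adjusted p = 0.00845), each from 1 day. The call was lost for mir-47 without 1-day replicate 1 or 2, 5-day replicate 1, 10-day replicate 1 or either 20-day library (0.19 to 0.21), and under 6 of 11 other settings, which were upper-quartile scaling, total counts, no filter, a minimum of 50 CPM, the L number as a fixed term and no 5-day group (0.082 to 0.33). For mir-253 this happened without 1-day replicate 1 or 2, 10-day replicate 1 or either 20-day library (0.16 to 0.33), and also with total counts, no filter, a minimum of 50 CPM, the L number as a fixed term or no 5-day group (0.21 to 0.32). For mir-359 it happened without 1-day replicate 2 (0.34), 20-day replicate 1 (0.35) or the 10-day group (0.29), and with total counts (0.24) or a minimum of 50 CPM (0.23).

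Of the 6 dips, mir-90 kept its call under every alternative tried. A member of the mir-50 seed family, it lies in an intron of K01F9.2 (chromosome III, 8873987 to 8874084, minus strand). It measured 15376, 13734 and 15069.6 CPM at 1 day, 7655, 11740.1 and 8273 CPM at 5 days, 13442, 10420.3 and 12696 CPM at 10 days, and 20965 and 17553 CPM at 20 days. The highest mid-life library (13442 CPM) lay just below the lowest end library (13734 CPM). Mid-life was 1.39-fold below 1 day (log2 -0.47 ± 0.13 (SE), edgeR adjusted p = 0.00415) and 1.82-fold below 20 days (-0.86 ± 0.14, edgeR adjusted p = 5.53e-05). Taken singly against 1 day, 5 days was lower (log2 -0.68, edgeR adjusted p = 0.00140) and 10 days did not pass (-0.27, edgeR adjusted p = 0.126).

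mir-57, which helps to pattern the tail, was the most abundant dip. At 1 day it measured 24955, 22729 and 21521 CPM, at 5 days 14090.2, 18849 and 14699.7 CPM, at 10 days 19511, 14307 and 20666 CPM, and at 20 days 21836 and 24269 CPM (chromosome II, 7850499 to 7850597, minus strand, between genes). The mid-life libraries were spread over 14090.2 to 20666 CPM, all under the end libraries. Both differences from the ends were -0.44 on the log2 scale (edgeR adjusted p = 0.00485 and 0.0129). With upper-quartile scaling the smaller one was -0.37 and did not pass.

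mir-793, a let-7 seed relative on chromosome X (13857962 to 13858053, plus strand, between genes), stood at 255, 247 and 261 CPM at 1 day, 147, 193 and 164 CPM at 5 days, 179, 146 and 168 CPM at 10 days, and 221 and 226 CPM at 20 days. The highest mid-life library, at 193 CPM, lay below the lowest end library, at 221 CPM. Its log2 differences were -0.62 ± 0.11 (SE) from 1 day (edgeR adjusted p = 7.73e-05) and -0.43 ± 0.13 from 20 days (edgeR adjusted p = 0.00821), the latter lost with upper-quartile scaling (-0.36). mir-1829c, in an intron of the kinase gene piki-1 (chromosome X, 15236362 to 15236423, minus strand), measured 87.0 to 103 CPM at 1 day, 55.1 to 73.0 CPM in mid-life, and 82.5 and 87.9 CPM at 20 days. Its log2 differences were -0.51 ± 0.12 (SE) from 1 day (edgeR adjusted p = 0.00106) and -0.36 ± 0.14 from 20 days (edgeR adjusted p = 0.0391). Reads of mir-1829c may be shared with mir-1829a and mir-1829b, so its values are uncertain. Its call was lost without 10-day replicate 2 (-0.30), without the 10-day group (-0.32), with upper-quartile scaling (-0.29) and with the L number in the model as a random block (-0.35) or a fixed term (-0.30).

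mir-797, a scarce hairpin of the mir-2 seed family (chromosome X, 4757109 to 4757197, plus strand, between genes), had the deepest dip. It had 22, 19 and 25 counts at 1 day, 6, 6 and 10 counts at 5 days, 4, 3 and 12 counts at 10 days, and 22 and 18 counts at 20 days. In TMM-scaled CPM no mid-life library exceeded 8.92 and no end library fell below 11.2. Mid-life was 2.62-fold below 1 day (log2 -1.39 ± 0.32 (SE), edgeR adjusted p = 0.000984) and 3.32-fold below 20 days (-1.73 ± 0.37, edgeR adjusted p = 0.000515). With the L number as a fixed term the smaller difference was -1.09 and did not pass.

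mir-73, of the mir-72 family, was lowest at 5 days. It measured 4661, 4252 and 4458 CPM at 1 day, 3101, 3473 and 2618 CPM at 5 days, 4832, 4189 and 4623 CPM at 10 days, and 7284 and 8074 CPM at 20 days (chromosome X, 2368765 to 2368863, plus strand, between genes). The 10-day libraries overlapped those of 1 day, and the dip of -0.26 from 1 day (edgeR adjusted p = 0.0456) became -0.05 without the 5-day group. It was lost as well without 1-day replicate 3 (-0.26), 5-day replicate 3 (-0.21), or 10-day replicate 2 (-0.23) or 3 (-0.26), and with the L number as a fixed term (-0.17).

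**Figure D4:**
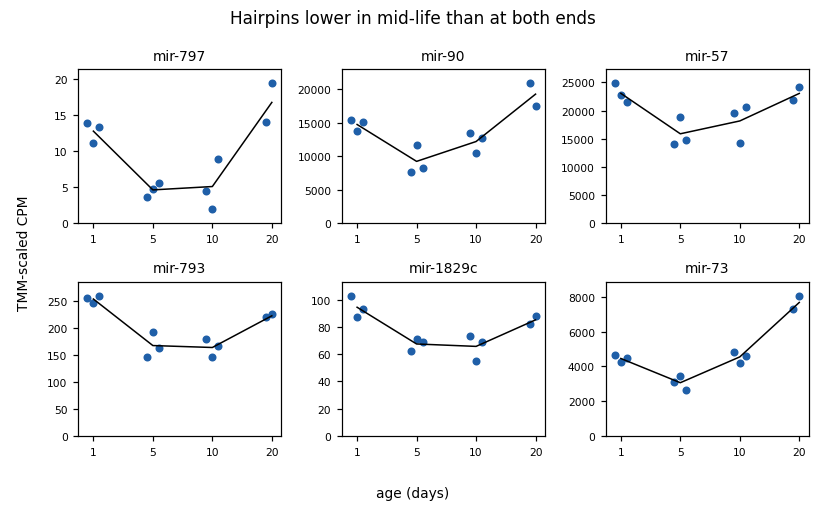
TMM-scaled CPM (y axes, from 0) by age in days (x axes, evenly spaced) for the 6 hairpins lower in mid-life than at both ends. Points are libraries and the line joins the age means; mir-73 overlaps the 1-day libraries at 10 days, and in the other 5 all mid-life libraries lie under all end libraries.

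The 49 hairpins that stood apart from the mean of the ends without a peak or dip passed against 1 end only, or lay between the ends and nearer to 1 of them. Of the 21 higher ones, 9 exceeded 1 day and did not pass against 20 days, and 10 exceeded 20 days and did not pass against 1 day. The other 2, mir-238 and mir-239a, were above 1 day and below 20 days. mir-355 was 4.29-fold above 1 day and did not pass against 20 days (log2 difference -0.05), mir-70 did not pass against 1 day (-0.15) and was 4.04-fold above 20 days, and the muscle miRNA mir-1 was 3.01-fold above 20 days. Among the 28 lower ones, 10 were below 1 day only, 8 below 20 days only and 10 above 1 day but below 20 days. mir-230 had the largest difference from the mean of the ends at a mean level of 50 CPM or more, at -1.26 ± 0.14 (SE), with 1228 to 1322 CPM at 1 day, 136 to 530.1 CPM in mid-life, and 432 and 297 CPM at 20 days. Its mid-life libraries overlapped those of 20 days (log2 difference -0.35, edgeR adjusted p = 0.106). It passed as a dip in 7 alternatives: no filter, no 5-day group, and without 1-day replicate 2, 5-day replicate 2, 10-day replicate 1 or 3, or 20-day replicate 2. mir-4813 and mir-235, the worm relative of vertebrate miR-92, were 4.51-fold and 3.76-fold below 1 day and did not pass against 20 days (-0.18 and 0.11).

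mir-1018, mir-43 and mir-2209a were lower than the mean of the ends through high values at 20 days, against which mid-life was lower by 2.80, 1.28 and 1.69 on the log2 scale. Without the 5-day group mir-1018 (-0.25) and mir-43 (-0.23) no longer stood apart from the mean of the ends. Among the most abundant hairpins, mir-228, a glial miRNA, was 1.85-fold below 20 days and did not pass against 1 day (-0.15), although it passed as a dip with total counts or a minimum of 50 CPM. mir-40, also abundant and a relative of mir-35, did not differ from the mean of the ends past the threshold (-0.0031 ± 0.10 (SE)).

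The lists that describe embryos, lifespan and tissues were read against the shares of all tested hairpins. Of these, 46.9% stood apart from the mean of the ends, 23.4% higher and 23.4% lower. Peaks made up 8.97% of all tested hairpins and dips 4.14%. The 8 hairpins of the mir-35 family, which are made in oocytes and embryos, had no peak and no dip. Of them, 6 were higher in mid-life than at 1 day, against 33.8% of all tested hairpins, and 5 lower than at 20 days, against 29.7%. One of them, mir-35, was higher and 2, mir-39 and mir-42, were lower than the mean of the ends, with a median log2 difference of -0.06; with RLE factors or total counts 3 were lower. Of 11 hairpins reported to affect lifespan, 6 were higher (mir-71, mir-80, mir-83, mir-238, mir-239a and lin-4), 3 lower (mir-228, mir-239b and mir-246) and 2 did not pass (let-7 and mir-34), with a median of 0.28. mir-71 was the 1 peak among them. In mid-life 7 of the 11 were above 1 day and 1 below, while 4 were above 20 days and 6 below. The matching shares of all tested hairpins were 33.8%, 26.2%, 28.3% and 29.7%. Of 8 tissue-restricted hairpins, the intestinal mir-60 and the muscle mir-1 were higher, mir-228 and mir-240 were lower, and the neuronal lsy-6, mir-124 and mir-791 and mir-786 did not pass, with a median of 0.03.

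In the remaining seed families, counts of members are to be read against 23.4% of all tested hairpins higher and 23.4% lower. The mir-51 family had 3 lower of 6 (mir-52, mir-54 and mir-55), the mir-72 family 2 of 3 (mir-73 and mir-74), the mir-2 family 2 of 4 (mir-43 and mir-797), the mir-44 family 2 of 3 and the mir-50 family 1 of 3, and none of these families had a member higher than the mean of the ends. Other scalings gave 2 lower for the mir-51 family (upper quartile), 2 for the mir-50 family (RLE and total counts) and 3 for the mir-44 family (total counts). In the mir-44 family the counts of mir-44 and mir-45 differed by a ratio of 0.990 to 1.03 in every library, and the values of this pair are uncertain, since shared reads cannot be told apart. The mir-238 family had 2 higher and 1 lower, both members of the mir-75 family were higher, and of the lin-4 family lin-4 was higher (0.28) and mir-237 did not pass (0.11). For mir-237, mid-life lay between distant ends: it was 4.84-fold below 1 day and 5.65-fold above 20 days.

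Among the peaks and dips, most did not differ between 1 and 20 days past the threshold. For 9 of 13 peaks and 5 of 6 dips the comparison of 20 with 1 day did not pass, a comparison that called 62.8% of all tested hairpins (33.1% higher, 29.7% lower). The exceptions were mir-63, mir-71, mir-60 and mir-47, which were lower at 20 than at 1 day, and mir-73, which was higher. A peak or dip needs mid-life beyond both ends, which favours hairpins with ends close together. These counts are therefore a description and no support. The mid ages themselves differed for 8 of the 19, and for 37.2% of all tested hairpins (29% higher at 10 days, 8.28% lower): mir-60 was lower at 10 than at 5 days by 0.68 on the log2 scale, and mir-48, mir-58a, mir-66, mir-79, mir-359, mir-73 and mir-90 were higher at 10 days by 0.34 to 0.57. The median of all tested hairpins in that step was 0.19 with TMM and -0.01 with RLE factors, under which mir-58a, mir-79, mir-359 and mir-90 no longer passed. All 4 single comparisons of a mid age with an end passed in the same direction for 6 of the 13 peaks and 2 of the 6 dips. These comparisons make up the 2 that defined the peaks and dips, in the same libraries, so the counts are a description and no support. Over all tested hairpins, 5 days differed from 1 day in 47.6% (21.4% higher, 26.2% lower) and from 20 days in 60.7% (26.2% higher, 34.5% lower). The shares for 10 days were 64.1% against 1 day (37.2% higher, 26.9% lower) and 44.8% against 20 days (24.8% higher, 20% lower).

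In the genome, 5 of 13 peaks (38.5%) and 4 of 6 dips (66.7%) lay on chromosome X, as did 47 of the 144 tested hairpins with a known place (32.6%). Introns held 5 of the peaks (38.5%) and 2 of the dips (33.3%), against 36.1% of those 144.

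**Figure D5:**
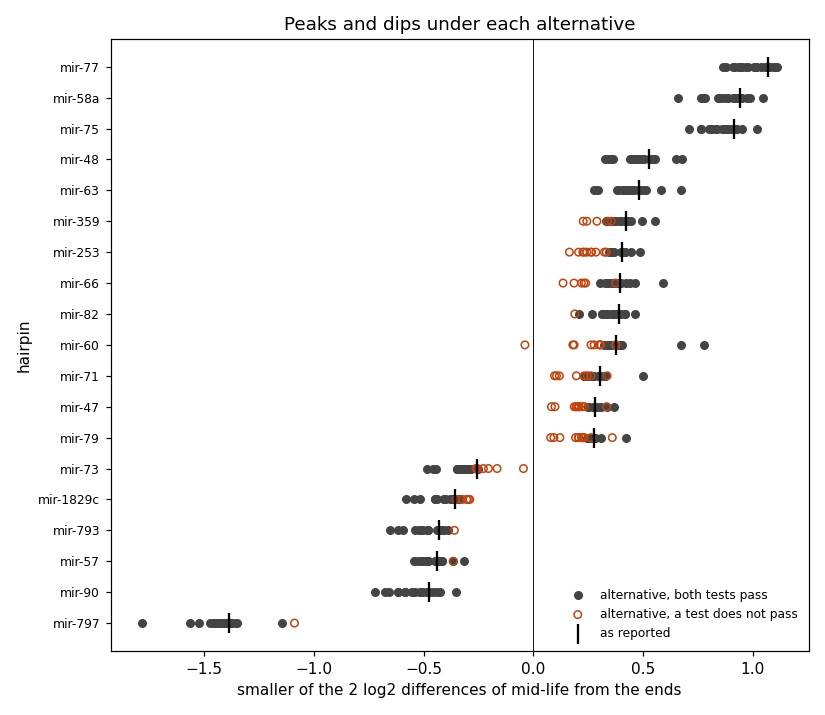
Smaller of the 2 log2 differences of mid-life from the ends (x axis) for each peak and dip (y axis), as reported (bar) and under each alternative or with 1 library left out (points, open where either test did not pass). mir-77, mir-58a, mir-75, mir-48, mir-63 and mir-90 have filled points only.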

How the data were processed

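Small RNA libraries of whole N2 worms at 1, 5, 10 and 20 days were grouped by labelled age, and replicate numbers only name libraries. The values are raw counts per miRNA hairpin as deposited by the authors, not normalized. The tools named were SAMtools 1.3.1-9, BWA 0.7.12-r1039, Trimmomatic 0.36 and CASAVA 1.8.4, per the submitters' processing notes. No reference, build, counting rule or treatment of reads matching several hairpins is stated in the sources used here, so near-identical hairpins are uncertain.

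Analysis ran in R 4.3.3. A low-count filter, edgeR's filterByExpr (minimum count 10, minimum total 15, by age), left 145 of 250 hairpins. These were scaled by TMM and fitted with edgeR 4.0.16 (quasi-likelihood, prior count 0.125) to all 11 libraries with age as a 4-level factor. Adjustment was Benjamini-Hochberg over 145 hairpins at 0.05. Contrasts were the mean of 5 and 10 days minus the mean of 1 and 20 days, minus 1 day, and minus 20 days. These share the mid-life libraries. SEs were the unshrunk difference divided by the square root of F, and the biological coefficient of variation was 12.5%. Counts were checked for each library pair of 1 age by chi-square. The steps were also run on simulated data with equal ends and the same shift at 5 and 10 days. That run cannot show how peaks and dips are called where the ends or the mid ages differ. 1 count was worth 0.555 to 1.05 CPM before scaling. No counting limits are given, and no molecular identifiers are named.

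Places came from the Ensembl 115 annotation of WBcel235 by name (245 of 250 matched 1 place) and are 1-based. Named hairpins were the up to 12 largest peaks and dips and the 8 largest differences each way at a mean of at least 50 CPM, the 5 most abundant, list members and up to 3 scarcer peaks or dips. The members and lists were chosen with earlier results of these data known. Alternatives were other scalings (RLE, upper quartile, total counts), no filter or a minimum of 50 CPM, DESeq2 1.42.0, robust fitting, the L number as a random block (limma 3.58.1) or fixed term, 1 mid age left out, libraries weighted equally, a quadratic term on log2 age, and each library left out. Those for 10 against 5 days and 20 against 1 day were added after seeing the data.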

Additional observations from a re-analysis of the deposited data

Results flagged for a closer look

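For 8 peaks and dips the effect against the ends differed between the mid ages by edgeR's test of 10 against 5 days. The log2 difference of 10 days minus 5 days was 0.34 for mir-58a, 0.45 for mir-48, 0.40 for mir-359, 0.52 for mir-66, 0.43 for mir-79, 0.57 for mir-73, 0.40 for mir-90 and -0.68 for mir-60. mir-60 and mir-73 kept this difference in every alternative that gave one. mir-66 lost it without 10-day replicate 1 (0.26), and mir-48 when that library (0.29), the filter (0.27) or all hairpins averaging under 50 CPM (0.19) were dropped. mir-58a, mir-359, mir-79 and mir-90 lost it with RLE factors (0.15, 0.20, 0.24 and 0.21), total counts or DESeq2, and when certain single libraries were left out.

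Of the 105 hairpins left out for low counts, 24 had more than 3 counts in at least 1 library. The most counted of them, mir-8193, had 56 counts over all libraries. Without a filter mir-2221 passed as a peak and mir-4810a as a dip, both named here after their values were seen. mir-2221 was at 0 in every 1-day library. Its 5-day libraries held 5, 8 and 5 counts, its 10-day libraries 1, 8 and 9, and the 20-day ones 2 and 0. mir-4810a was at 0 in every 5-day library and in 2 of 3 10-day libraries (1 count in the other), with 2, 5 and 1 counts in the 1-day libraries and 1 and 3 in the 20-day ones.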

How the results depend on the processing

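Among 11 settings, 11 left-out libraries and the 19 peaks and dips, the calls of mir-77, mir-58a, mir-75, mir-48, mir-63 and mir-90 held throughout. mir-82 was lost only with a minimum of 50 CPM, and mir-57 and mir-793 only with upper-quartile scaling. Peaks numbered 8 with total counts and 7 with a minimum of 50 CPM, and dips numbered 3 with upper quartiles and 3 with the L number as a fixed term. With the minimum of 50 CPM 52 hairpins differed from 1 day rather than 87, from a smaller table. With 1 library left out, peaks ranged from 6 to 15 and dips from 4 to 11. The cause of these differences was not tested. No scaling alternative moved the median log2 difference from the mean of the ends by over 0.1. Leaving out 20-day replicate 1 moved it by -0.12 and leaving out 10-day replicate 1 by -0.10. The medians of the differences from 1 day and from 20 days, which define peaks and dips, were not followed across the alternatives. The sign turned for mir-40 with upper quartiles (0.0074), without the 5-day group (0.16) and with libraries weighted equally (0.033). It also turned with some single libraries left out (up to 0.084), while others kept it (down to -0.165). None of these mir-40 differences passed the threshold. The smaller difference of mir-60 changed sign without the 5-day group (-0.039). No paired analysis was possible because the labels give no replicate numbers shared between ages. The L number, which some ages share, was fitted as a random block (13 peaks, 5 dips) and as a fixed term (10 peaks, 3 dips). The fixed term used up nearly all the information on spread between libraries, so calls lost or gained under it are uncertain. A quadratic term on log2 age called 69 hairpins and equal weights for libraries 74, against 68. At these depths differences of scarce hairpins such as mir-797 rest on few counts.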

Other observations

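Hairpins that lie close together on 1 strand, within 10000 bases of each other, did not always share their mid-life course. mir-73, mir-74 and mir-75 lie on chromosome X between 2368765 and 2372549 on the plus strand. mir-73 dipped and mir-75 peaked, with log2 differences from the mean of the ends of -0.65 and 0.95, and mir-74 was lower by 0.54. On chromosome III (8865270 to 8874084, minus strand), mir-80 and mir-238 were higher (0.56 and 0.35) and mir-90 lower (-0.67). On chromosome I, mir-71 was higher (0.89) and mir-2 did not pass (-0.10). In 2 other clusters all members were lower than the mean of the ends, as were 23.4% of all tested hairpins. These were mir-42, mir-43 and mir-44 on chromosome II (-0.67 to -0.34) and mir-2208a, mir-2208b and mir-2209a on chromosome IV (-1.30 to -0.49). All had their highest age mean at 20 days. Against 1 day, mir-42, mir-44, mir-2208a and mir-2209a were higher (log2 0.38, 0.37, 1.98 and 0.38), and mir-43 and mir-2208b did not pass. mir-2208b is scarce, and mir-44 may share reads with mir-45. Whether neighbours differ from each other was not tested.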
